A study of Mus musculus with 12 samples.

Results

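The genes described here are 9 enzymes that break down amino acids in hepatocytes: Tat, Tdo2, Hpd, Hgd, Fah, Sds, Hal, Gldc and Prodh. They were taken by gene symbol, and all 9 are listed, once each, among the 30743 symbols of the table. Messenger RNA was sequenced from whole livers of male C57BL/6J mouse fetuses (15 ± 0.5 dpc), 6 from control dams on a diet with 13.5% of its energy as fat and 6 from HFD dams on a diet with 60%. The dams had eaten their diet for 12 to 14 weeks, and no allele or drug was part of the design; which livers shared a dam is not given in the labels. The value used for each gene is the authors' average log2 CPM over all 12 livers, where CPM is the read count of a gene scaled to a common library total. It is a single mean over both diets, so no value below has an SD, and no difference between HFD and control livers is given.

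Amino acid catabolism is a trait of the adult hepatocyte, which removes surplus dietary amino acids and turns their carbon into glucose, ketone bodies or energy. In rodents much of this program is switched on late, around birth and weaning, and tyrosine aminotransferase and serine dehydratase are classical examples of enzymes induced by glucocorticoids and glucagon. At mid-gestation the liver is also the main blood-forming organ, so its RNA comes from hepatoblasts, erythroid cells, other blood cells, endothelium and mesenchyme together. In such whole-organ RNA, fewer cells of a type and less RNA per cell cannot be told apart.

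The levels of the 9 enzymes spread widely. Fah, Hpd and Gldc had average levels of 150, 118 and 87.0 CPM and together made up 90.9% of the 9 enzymes' summed level. Hal and Prodh had 20.02 and 11.0 CPM. Tat, Hgd, Sds and Tdo2 lay between 0.420 and 1.79 CPM. Of the 9 enzymes, 8 lay above 1 CPM, as did 51.8% of the 19652 symbols with reads, and 5 lay above 10 CPM, as did 28.2% of those symbols. All 9 together held 0.0388% of the summed CPM of the table, against 6.30% for albumin (Alb) alone.

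**Figure D1:**
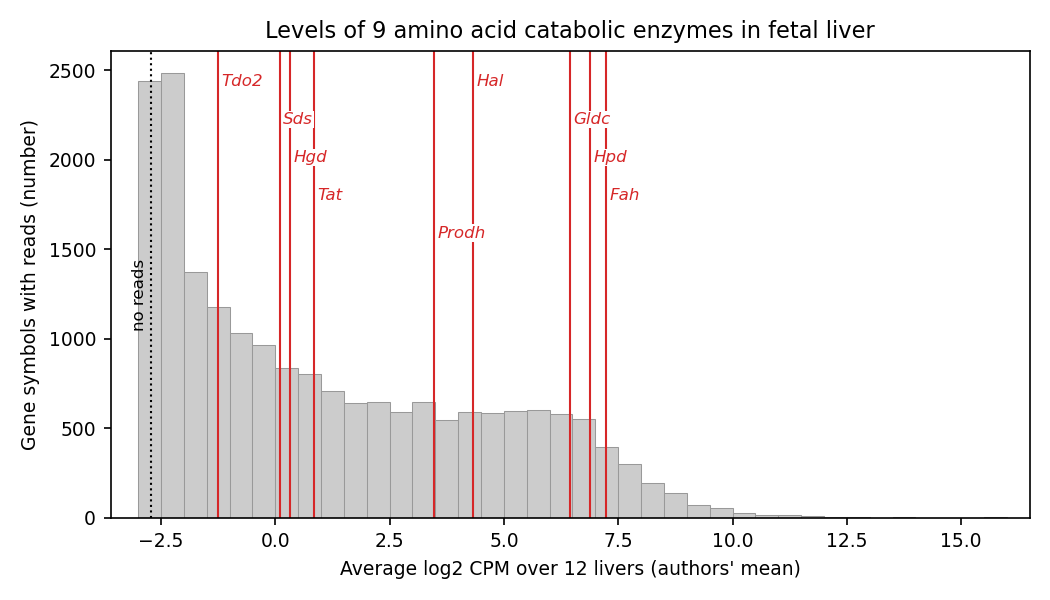
Number of gene symbols with reads (y axis) by their average log2 CPM over the 12 livers (x axis, bins of 0.5), with the 9 enzymes as red lines and the value of symbols without reads as a dotted line. Fah, Hpd and Gldc lie on the right slope at log2 values from 6.44 to 7.23, and Tdo2 lies at -1.25, towards the left edge.

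The table itself gave the depth behind these levels. Symbols without reads, 11091 in number, shared the lowest value, 0.152 CPM, and the 1267 symbols next above it stood 0.00634 CPM higher, which is the step of a single read. The lowest value equalled 24.01 such steps, or 2.00 for each of the 12 libraries, and all of the 3149 symbols with up to 5 reads lay within 0.1 of a whole number of steps. The step corresponds to 13136616 effective reads per liver on average. Expressed in these steps, Fah rested on about 23639 reads over all 12 livers, Hpd on 18553, Gldc on 13685, Hal on 3132 and Prodh on 1712. Tat rested on about 259 reads, with a 95% Poisson interval from 228 to 293. For Hgd the number was 174 (interval from 149 to 202), for Sds 144 (121 to 170) and for Tdo2 42 (30.3 to 56.8), or 3.51 reads per liver. These intervals cover counting error only and hold nothing of the spread between livers.

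Levels of different genes can be compared only per length, and the longest annotated transcript was used for this. On that scale Fah led with 94.7 CPM per kb, followed by Hpd with 83.9 and Gldc with 23.1. Hal had 3.76 CPM per kb and Prodh 2.23. Sds, Tat and Hgd followed with 0.829, 0.755 and 0.737 CPM per kb, and their counting intervals overlapped, so their order was not resolved. Tdo2 was last with 0.122 CPM per kb, and Fah stood 774-fold above it. That ratio was 347 by coding length and 1214 with the floor of symbols without reads subtracted, the floor being 0.152 of the 0.420 CPM of Tdo2. Whether neighbours in this order differed beyond the spread of the livers could not be tested with a mean alone. Fah and Hpd, the nearest pair at the top, differed 1.13-fold per length, and their counting intervals were separate. The longest transcript of Prodh is a single exon of 4943 bases, and by its coding length Prodh had 6.13 CPM per kb.

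**Figure D2:**
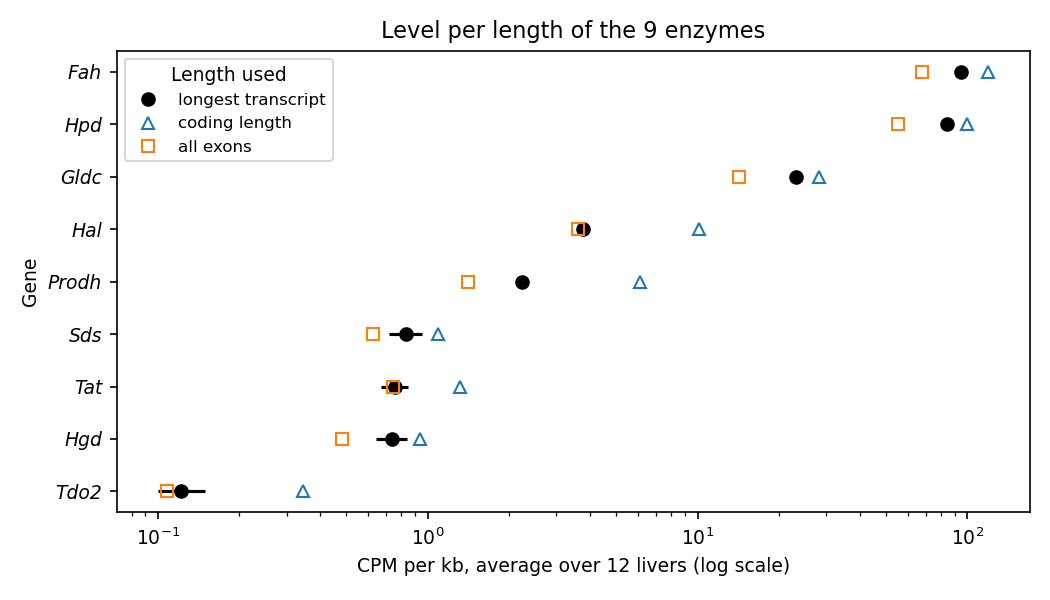
Average level per length of the 9 enzymes in CPM per kb (x axis, log scale), with the longest transcript (filled circles), the coding length (triangles) or all annotated exons (squares) as the length. Bars give the 95% Poisson interval of the reads for the longest transcript, and the enzymes span from 0.122 (Tdo2) to 94.7 (Fah).

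Tyrosine breakdown runs from Tat, the aminotransferase of the opening step, through Hpd (hydroxyphenylpyruvate dioxygenase), Hgd (homogentisate dioxygenase) and Gstz1 (maleylacetoacetate isomerase) to Fah (fumarylacetoacetate hydrolase), the closing step. Levels along this chain did not run in parallel. Hpd stood 111-fold above Tat per length, and Fah 125.5-fold. Pcbd1 and Qdpr, which recycle the cofactor tetrahydrobiopterin, had 160 and 132 CPM, and Gch1, which starts its synthesis, had 15.7 CPM. Hgd and Gstz1 were listed at 1.25 and 0.426 CPM. They have 2 and 5 curated RefSeq transcripts, whereas Tat, Hpd and Fah have 1 each. The number of curated transcripts moved with the level across the table and is described further below. By the GENCODE annotation Hgd does not stand apart, with 5 transcripts beside 5 for Fah and 6 for Hpd.

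Tat lies on chromosome 8 of GRCm38 (the build of mm10) from 109990437 to 109999803 on the plus strand, with 12 exons in its longest transcript. Hpd lies on chromosome 5 from 123171807 to 123182727, Hgd on chromosome 16 from 37580153 to 37632020 and Fah on chromosome 7 from 84585159 to 84606722, and each of these longest transcripts has 14 exons. No exon of Tat, Hpd, Hgd or Fah overlapped an exon of another annotated gene, and none of their stretches of 50 bases was found in a transcript of another gene.

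Tdo2, tryptophan dioxygenase, opens the kynurenine pathway in liver and was the lowest of the 9 enzymes. Its alternatives Ido1 and Ido2 were listed with 1 and 3 reads over all livers, and Afmid and Kmo, which act next, with 20 and 35 reads. Of these, Ido1 and Afmid have 2 and 4 curated transcripts, and Ido2 and Kmo have 1. The later enzymes Kynu, Haao and Acmsd stood higher, as did Aadat, which acts on kynurenine in a side branch. Kynu had 7.04 CPM, Haao 24.8 CPM, Aadat 29.3 CPM and Acmsd 31.2 CPM, and per length Haao and Acmsd stood 65.0- and 94.0-fold above Tdo2, or 101- and 147-fold with the floor subtracted. Tdo2 lies on chromosome 3 from 81957090 to 81976202 on the minus strand and shared no exon with another gene.

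Gldc, the glycine decarboxylase, is the subunit that binds glycine in the mitochondrial glycine cleavage system. The genes of all 4 proteins of this system lay above 10 CPM, with Gldc at 87.0 CPM, the carrier Gcsh, which has 2 curated transcripts, at 120 CPM, the aminomethyltransferase Amt at 32.7 CPM and Dld, a subunit shared with other dehydrogenase complexes, at 317 CPM. Per length Gldc stood 1.47-fold above Amt, a ratio of 1.04 by coding length, and Dld stood 5.39-fold above Gldc. Gldc lies on chromosome 19 from 30098447 to 30175429 on the minus strand, with 25 exons. Shmt1, the cytosolic enzyme that interconverts serine and glycine, had 84.6 CPM, whereas Shmt2, its mitochondrial counterpart, was listed at 0.235 CPM and has 2 curated transcripts. Dmgdh, which turns dimethylglycine into sarcosine, had 111 CPM, and Sardh, which turns sarcosine into glycine, had 147 CPM.

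Sds, serine dehydratase, turns serine into pyruvate and ammonia, and had 1.07 CPM. Gldc stood 27.9-fold above it per length. The related Sdsl, which has 2 curated transcripts, was listed with 9 reads. Sds lies on chromosome 5 from 120476526 to 120483932 on the plus strand, and 29.6% of its exonic bases overlapped exons of 2 genes on the opposite strand, Gm15690 and Plbd2. Of its stretches of 50 bases, 28.9% also occurred in a transcript of another gene. The library kit does not mark strand, so reads from these stretches cannot be told apart, and the value of Sds is uncertain for that reason.

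Hal, histidine ammonia lyase, opens histidine breakdown. It had 20.02 CPM, and the later enzymes Amdhd1 and Ftcd had 49.8 and 151 CPM, or 5.47- and 13.8-fold the level of Hal per length. By coding length the ratio of Ftcd to Hal was 9.18. Uroc1, which acts directly after Hal, was listed at 1.12 CPM and has 2 curated transcripts. Hal lies on chromosome 10 from 93488768 to 93519304 on the plus strand, with 20 exons.

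Prodh, proline dehydrogenase, starts proline breakdown in mitochondria, and its relative Prodh2 acts mainly on hydroxyproline. Prodh had 11.0 CPM and Prodh2 115 CPM, a difference of 27.9-fold per length and 13.7-fold by coding length. Aldh4a1, which acts later in both routes, had 410 CPM and stood 44.4-fold above Prodh per length. Oat, ornithine aminotransferase, had 199 CPM. Of the enzymes that make proline, Pycrl had 68.4 CPM and Pycr1 7.12 CPM, whereas Aldh18a1 was listed at 0.285 CPM and has 2 curated transcripts. Prodh lies on chromosome 16 from 18060357 to 18090203 on the minus strand, and 0.695% of its stretches of 50 bases occurred in other genes, against 1.02% for Hal and none for Gldc and Tdo2.

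**Figure D3:**
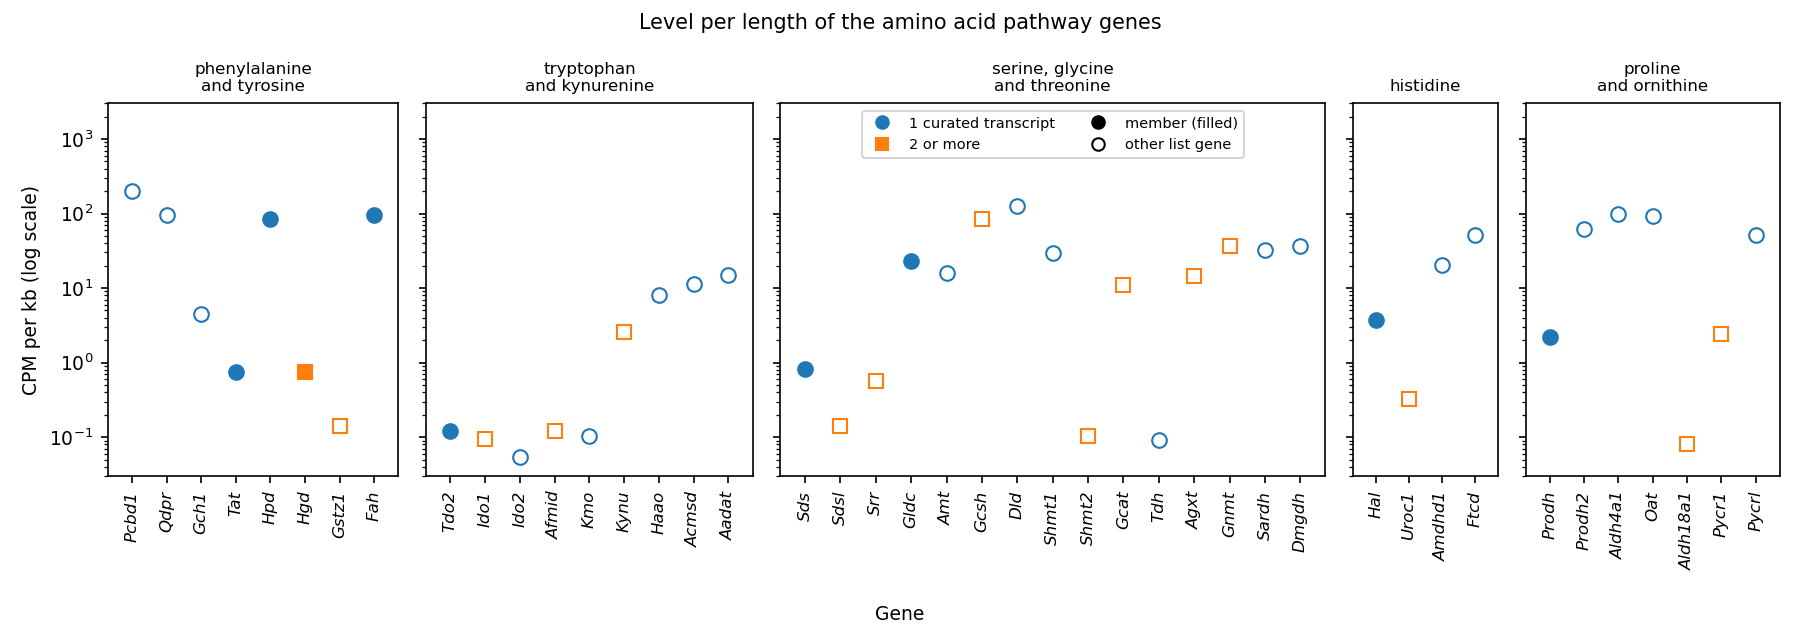
Level per length in CPM per kb (y axis, log scale) of 43 genes of the 5 amino acid lists (x axis), with filled symbols for the 9 enzymes, circles for genes with 1 curated RefSeq transcript and squares for genes with 2 or more. In the tyrosine list Tat, Hgd and Gstz1 lie below 1 CPM per kb beside Hpd and Fah at 83.9 or more, and of the 15 squares 4 (Gcsh, Gcat, Agxt and Gnmt) lie above 10 CPM per kb.

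Over the 5 lists, 36 genes stood beside the 9 enzymes. Of these, 27 lay above 1 CPM and 23 above 10 CPM, against 51.8% and 28.2% of symbols with reads. Their median was 30.3 CPM, and that of the 9 enzymes was 11.0 CPM. These medians are not divided by length, so they do not rank the groups. The 36 genes also include genes of cofactor supply, a subunit shared with other complexes and enzymes that make proline. The level moved with the number of curated RefSeq transcripts. Among the 22 of these genes with 1 curated RefSeq transcript, 19 lay above 10 CPM, and among the 14 with 2 or more, 4 did.

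The same held across the table. Of 12182 protein-coding genes with 1 curated transcript, 32.5% lay above 10 CPM and 10.5% above 100 CPM. Of 8112 genes with 2 or more, 16.1% and 3.86% did. Symbols without reads ran the other way, with 24.7% of the genes with 1 curated transcript and 18.4% of those with 2 or more. Low values were also found for housekeeping genes, which every cell uses. Of 31 such genes, listed after the data were seen, 11 lay at or below 10 CPM and 20 above it. Of all symbols with reads, 28.2% lay above 10 CPM. Ppia (cyclophilin A) was listed with 2 reads over all livers, Rab7 with 6 and Ldha, the lactate dehydrogenase of glycolysis, with 100, while Gapdh had 5.20 CPM and Actb 2581 CPM. Of 24 housekeeping genes with 1 curated transcript 18 lay above 10 CPM, and of 7 with more, 2 did. Ppia, Gapdh and Rps18 shared 20.8%, 27.8% and 33.6% of their stretches of 50 bases with other genes. A low value in this table therefore cannot be read as low expression by itself, and the part of transcript number or shared sequence in any single level was not tested.

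**Figure D4:**
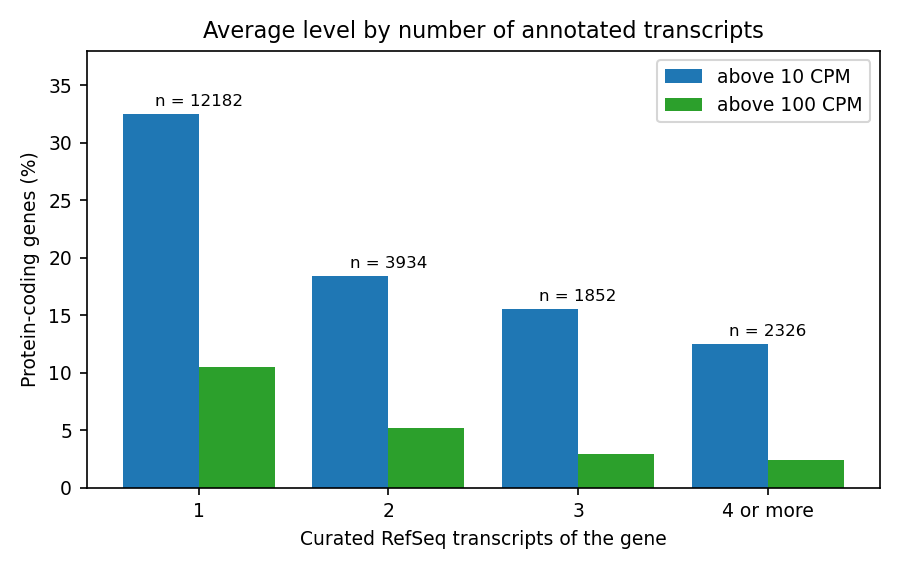
Percentage of protein-coding genes (y axis) above 10 CPM (blue) and above 100 CPM (green) by the number of curated RefSeq transcripts of the gene (x axis), with the number of genes above each pair of bars. The share above 10 CPM falls from 32.5% with 1 transcript to 12.5% with 4 or more.

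Of the 9 enzymes, 8 have 1 curated transcript, and Hgd has 2. Genes with 2 curated transcripts were listed both high, as Gcsh with 120 CPM, and low, as Shmt2 with 0.235 CPM. Tat and Tdo2 have 1 curated transcript each, no exon in common with another annotated gene and no stretch shared with another annotated transcript. The GENCODE annotation lists 2 transcripts for Tat and 4 for Tdo2. Whether transcript number or shared sequence bears on their low values was not tested. Of the 24 housekeeping genes with 1 curated transcript, 18 lay above 10 CPM, and Tbp, named after its value was seen, was listed at 0.638 CPM. Set among the 9173 coding genes with 1 curated transcript and reads, the percentile was 91.2 for Fah, 88.3 for Hpd and 84.1 for Gldc, 64.7 for Hal and 58.0 for Prodh, 41.6 for Tat, 36.8 for Sds and 26.1 for Tdo2.

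Levels of hepatocyte markers are given beside those of the enzymes. A mean per gene over whole livers cannot show which cells the RNA of the enzymes came from. The label of hepatocyte genes was therefore not tested. Alb and Afp, the adult and fetal plasma albumins, had 63314 and 54525 CPM. Above 10 CPM lay 8 of 10 hepatocyte markers, against 28.2% of symbols with reads. The exceptions were Serpina1a with 5 reads and Hnf4a without a read, with 2 and 3 curated transcripts. Apoa2 and Cebpa, with 5 curated transcripts each, had 2251 and 179 CPM. All 6 hepatocyte markers with 1 curated transcript lay above 10 CPM, as did 2 of the 4 with 2 or more. The part of transcript number in these levels was not tested. Other enzymes of mature hepatocytes were also spread widely: Otc, Asl, Cps1, Arg1 and Ass1 ranged from 25.7 to 176 CPM and Cyp7a1 had 5.67 CPM, while Cyp2e1, G6pc and Pck1 were listed at 0.356, 0.341 and 0.336 CPM. All 10 genes of that list have 1 curated transcript. Pck1 and G6pc, the gluconeogenic enzymes, are, like Tat, known to be induced around birth. Whether that bears on their levels here was not tested.

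Levels of markers of other cell types are given in the same way. Erythroid markers reached 24904 CPM for Hbb-b1 and 12037 CPM for Slc4a1. Of the 8 listed, 7 lay above 10 CPM, against 28.2% of symbols with reads. The exception was Alas2, which has 2 curated transcripts, at 0.704 CPM. Myeloid markers ranged from 38.3 CPM for Prtn3 to 759 CPM for Mpo. Megakaryocyte markers ranged from 4.99 CPM for Itga2b to 251 CPM for Ppbp, B-lineage markers from 0.855 CPM for Igll1 to 14.3 CPM for Cd79b, and mesenchymal markers with reads from 14.1 CPM for Dcn to 468 CPM for Col1a1. Endothelial markers with reads ranged from 2.24 CPM for Stab2 to 151 CPM for Lyve1 and macrophage markers from 0.209 CPM for Cd68 to 208 CPM for Marco. Pecam1, Pdgfrb and Emr1, each with 2 or more curated transcripts, were listed without a read. Kdr and Dcn also have 2 curated transcripts and had 71.0 and 14.1 CPM. Acinar pancreas markers ranged from 0.197 CPM for Amy2b to 13.7 CPM for Cela1. Above 10 CPM lay 6 of 6 myeloid, 3 of 4 megakaryocyte, 4 of 5 mesenchymal and 3 of 5 endothelial markers. For B-lineage, macrophage and acinar markers the counts were 1 of 4, 1 of 5 and 1 of 5. Whether cells of these last 3 kinds contributed RNA was not tested. The share of the 9 enzymes' RNA that came from each cell type was not tested.

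The promoters of the enzymes were read from RefSeq (GRCm38.p6), as the 250 bases before the start annotated there. By the GENCODE positions given above, the windows of Fah, Tdo2 and Prodh lie inside the gene, downstream of its outermost start. The window of Hpd overlaps the outermost bases of its gene. Of the 9 enzymes 8 were matched, all but Sds. They differed in base composition: the Fah promoter held 16 CpG dinucleotides and 64.4% G or C, those of Prodh, Gldc, Hpd and Hal held 11, 8, 7 and 6, and those of Tat, Tdo2 and Hgd held 3, 3 and 1. The median over all 32851 promoters was 6. At most 5 CpG were thus held by 3 of the 8 promoters, and by 49.6% of all promoters. On either strand, the TATA box letters TATAAA occurred in 3 of the 8 windows (12.4% of all promoters), the CCAAT box letters CCAAT in 5 (33.8%), the GC box letters GGGCGG in 3 (32.7%) and the HNF1 half-site letters GTTAAT in none (6.43%). These are matches of letters and say nothing about the binding of a factor.

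The windows of the highest and the lowest enzyme per length are shown, with that of Hal, whose TATAAA match (as its reverse complement) begins 28 bases before the start. Capitals mark matches to these 4 motifs on either strand, and each window is written 5′ to 3′ on the gene's strand. Fah lies at chr7:84605943-84606192 (minus), Tdo2 at chr3:81975729-81975978 (minus) and Hal at chr10:93488518-93488767 (plus).
Fah: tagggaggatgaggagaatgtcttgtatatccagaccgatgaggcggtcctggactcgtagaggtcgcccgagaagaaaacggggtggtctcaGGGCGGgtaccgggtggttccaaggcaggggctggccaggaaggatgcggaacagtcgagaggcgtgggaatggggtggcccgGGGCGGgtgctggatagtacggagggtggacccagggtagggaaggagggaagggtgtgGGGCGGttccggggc
Tdo2: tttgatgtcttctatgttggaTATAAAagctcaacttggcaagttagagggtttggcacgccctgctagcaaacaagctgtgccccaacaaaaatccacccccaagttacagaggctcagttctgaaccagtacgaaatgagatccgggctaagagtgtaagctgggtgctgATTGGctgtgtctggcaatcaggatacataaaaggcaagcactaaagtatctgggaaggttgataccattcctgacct
Hal: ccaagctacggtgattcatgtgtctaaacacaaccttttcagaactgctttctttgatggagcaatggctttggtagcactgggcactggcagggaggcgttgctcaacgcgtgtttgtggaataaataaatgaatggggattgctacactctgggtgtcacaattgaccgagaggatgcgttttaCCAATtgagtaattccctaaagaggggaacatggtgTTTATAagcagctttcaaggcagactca
The Fah window held 3 GC boxes and no TATA or CCAAT box. The Tdo2 window held 1 TATA box match 229 bases before the RefSeq start and 1 CCAAT box. The Hal window held 1 CCAAT box beside its TATA box match.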

How the data were processed

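PolyA-selected RNA of 12 fetal livers, 6 per diet, was sequenced on an Illumina HiSeq. The submitters' processing notes name cutadapt 1.2.1, Subread 1.3.6-p1, edgeR and mm10; the counting tool, gene models and normalization are not given in the sources used here. The authors deposited 1 table with 30743 symbols. Its average log2 CPM, as deposited, is a mean over all libraries with a floor for symbols without reads, and only this was used. The other columns hold fold changes, p-values and adjusted p-values of the authors' own comparison of the diets and were not used. The planned edgeR test of the diets was not run, as it needs counts of each liver.

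CPM is 2 to the power of the deposited value. Reads over all livers are CPM above the floor divided by the step of a single read, rounded, with exact Poisson intervals (95%). The recovery of read numbers from such averages was tested on simulated data without spread between livers. The simulated totals covered those of Tat, Hgd, Sds and Tdo2. For the larger totals of Fah, Hpd, Gldc, Hal and Prodh, and for data with such spread, it was not tested. Percentiles are shares of symbols with a lower value. Lengths, positions and overlaps came from GENCODE M21 (GRCm38), and curated transcripts (NM or NR accessions) from RefSeq on GRCm38.p6, to which 23074 symbols matched by symbol or synonym; the authors' gene models may differ. The split by transcript number was chosen after the data were seen. Shared stretches of 50 bases were sought in all GENCODE transcripts. The members and lists were chosen with earlier results of these data known. Named were the 9 enzymes, genes of 5 amino acid lists, and of the marker lists the highest and lowest with reads; others, and the housekeeping genes, were named after their values were seen. Some genes of the lists are counted but not reported here by name. Scripts ran in Python 3.11.15 with pandas 2.3.3, numpy 2.4.6, matplotlib 3.10.9 and, for intervals, scipy 1.17.1.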

Additional observations from a re-analysis of the deposited data

How the results depend on the processing

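The median percentile of the 9 enzymes was 72.8 among symbols with reads, 82.6 among all symbols, 47.4 among symbols above 1 CPM and, chosen after seeing the data, 58.0 among coding genes with 1 curated transcript. Above 1 CPM lay 8 enzymes and above 10 CPM 5. With the floor subtracted, an alternative added after seeing the data, 7 lay above 1 CPM and the order was the same. Without division by length, 3 enzymes changed place in the order; with coding length or with all exons, both added after seeing the data, 2 did in each case. These moves were among Sds, Tat and Hgd, while Fah, Hpd, Gldc, Hal and Prodh kept places 1 to 5 and Tdo2 place 9. Length from RefSeq proteins was not run. The edgeR and DESeq2 tests of the diets, with and without a filter and leaving out each liver in turn, were not run, because each needs counts per liver. No paired analysis was possible because no value of a single liver was used. Depth limits the lowest values: at 42 reads, Tdo2 had a counting interval from 30.3 to 56.8.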
